A study of Mus musculus with 32 samples.

Results

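The genes of the mitochondrial fission and fusion machinery were examined in mouse liver RNA-seq. They were the 10 rows of the deposited table whose symbol is *Dnm1l*, *Mfn1*, *Mfn2*, *Opa1*, *Fis1*, *Mff*, *Mief1*, *Mief2*, *Oma1* or *Yme1l1*, and all 10 were found among its 21880 genes. Liver RNA came from 32 libraries in 8 groups of 4, namely WT mice and 3 knockout genotypes (L-*Dnm1l*–KO, DKO and TKO), each at 2 months and at 6 months of age. L-*Dnm1l*–KO mice lack *Dnm1l*, DKO mice lack *Mfn1* and *Mfn2*, and TKO mice lack all of these genes. In each case floxed alleles were removed by a Cre driven by the albumin promoter, which is active in hepatocytes, and whole liver also holds cells in which that promoter is not active. The floxed lines were of a mixed background and were bred for several generations to the Cre line.

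The value analysed for each gene was the authors' mean normalized count, a single mean over the libraries of their fit, without a spread and without an n. No value per mouse, per genotype or per age was analysed here. The mean mixes 16 libraries labelled as *Dnm1l*-deleted (L-*Dnm1l*–KO and TKO) and 16 labelled as *Mfn1*- and *Mfn2*-deleted (DKO and TKO) with libraries in which these genes are intact. Loss of the deleted genes and compensation by the others, the questions that the design raises for this machinery, were therefore not tested, and neither the deletions nor any difference between groups can be read from the values below. The depth of single libraries is unknown. The mean normalized counts sum to 900450 over all genes, which is the average total of counted reads per library after scaling by size factors.

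Mitochondria divide and join continually. Division is carried out by DRP1, the dynamin-related GTPase encoded by *Dnm1l*, which is recruited from the cytosol by receptors of the outer membrane and constricts the organelle. Joining of the outer membranes needs the mitofusins MFN1 and MFN2, and joining of the inner membranes needs OPA1, whose long and short forms are set by the proteases OMA1 and YME1L1. Hepatocytes are rich in mitochondria, and the balance between these activities sets whether their mitochondria are long, fragmented or unusually large.

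*Dnm1l* (ENSMUSG00000022789, chromosome 16, 16312230 to 16358959, minus strand, on GRCm38) had a mean normalized count of 8.70. Of all genes in the table, 78.2% had a lower value. Its annotated exons span 5203 bases when merged over isoforms, which gives a mean normalized count of 1.67 per kilobase of exon. *Gm49521* (ENSMUSG00000115923, chromosome 16, 16349203 to 16359011), an antisense noncoding gene on the plus strand, lies across the start of *Dnm1l*, and the exons of both genes share 243 bases. Of these, 102 are coding bases of the first coding exon of *Dnm1l*, at chr16:16358764-16358865 (GRCm38). That stretch is shown because reads from it can belong to either gene and only their strand separates them. It was read from the GENCODE M21 transcript and is written 5′ to 3′ in the direction of *Dnm1l*, with the start codon in capitals.
Dnm1l first coding exon: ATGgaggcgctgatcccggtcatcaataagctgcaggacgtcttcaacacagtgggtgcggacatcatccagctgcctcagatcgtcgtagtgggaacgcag
The row of *Gm49521* had a mean normalized count of 40.2, which is 4.62 times that of *Dnm1l*. Per kilobase of exon it was 66.9, or 40.0 times the *Dnm1l* value, on a gene model of only 600 exonic bases. The noncoding row opposite the fission GTPase was thus the higher of the pair on both scales. The same held in 72.4% of 2174 pairs of a coding gene and an opposite noncoding gene, and in 85.4% per kilobase of exon. Which strand the counted reads of either row came from was not tested. The 2 values are therefore not given as the RNA abundance of *Gm49521* and *Dnm1l*.

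Among the receptors that recruit DRP1, *Mff*, the mitochondrial fission factor of the outer membrane, had a mean normalized count of 6.08 (ENSMUSG00000026150, chromosome 1, 82724890 to 82752394). With 9757 exonic bases this was 0.623 per kilobase of exon. *Mff* is the other member with an exon annotated on the opposite strand. *C430014B12Rik* (ENSMUSG00000097564, chromosome 1, 82691928 to 82725169), a noncoding processed transcript, shares 195 noncoding bases with *Mff* at its start. Its row had a mean normalized count of 38.7, 6.37 times that of *Mff*, and 8.91 per kilobase of exon against 0.623. Both members with an opposite-strand exon therefore had the lower value of their pair. The strand of the counted reads was not tested for the *Mff* pair either.

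*Fis1*, a small tail-anchored outer membrane protein that takes part in fission, had a mean normalized count of 4.71 (ENSMUSG00000019054, chromosome 5, 136953275 to 136966234). Its 1714 exonic bases gave it 2.75 per kilobase of exon, first of the 10 genes on this scale. *Mief1* and *Mief2* encode the adaptors MiD51 and MiD49, which bind DRP1 at the outer membrane. *Mief2* (ENSMUSG00000018599, chromosome 11, 60728398 to 60732951) stood at 2.71, or 0.997 per kilobase of exon. *Mief1* (ENSMUSG00000022412, chromosome 15, 80234018 to 80253371) stood at 2.23, or 0.275 per kilobase of exon, the lowest of the 10 on that scale, whereas per kilobase of coding length *Oma1* was lowest at 0.445 and *Mief1* next at 1.60. The exons of *Mief1* also overlap 1 other annotated gene on the same strand, so its reads could have been left unassigned there by the counting.

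For outer membrane fusion, *Mfn2* (ENSMUSG00000029020, chromosome 4, 147873599 to 147904704), which also tethers mitochondria to the endoplasmic reticulum, had a mean normalized count of 9.04. *Mfn1* (ENSMUSG00000027668, chromosome 3, 32529465 to 32579239) had one of 4.64. Per kilobase of exon these values were 1.74 for *Mfn2* and 0.759 for *Mfn1*, so that the mitofusin rows kept their order after scaling by length. *Opa1* (ENSMUSG00000038084, chromosome 16, 29579334 to 29654884), the GTPase of inner membrane fusion and of cristae shape, had a mean normalized count of 7.32 and 0.929 per kilobase of exon. None of these 3 genes has an annotated exon on the opposite strand.

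The proteases that cut OPA1 lay at the ends of the unscaled range. *Yme1l1* (ENSMUSG00000026775, chromosome 2, 23156369 to 23199260), the protease of the inner membrane that acts on OPA1 under resting conditions, had a mean normalized count of 16.7 and was the only member with a mean of at least 10. Its value per kilobase of exon was 2.08. *Oma1* (ENSMUSG00000035069, chromosome 4, 103313812 to 103371868), which cuts OPA1 when mitochondria are stressed, had a mean normalized count of 0.696 and was the only member under 1. Its value was 0.324 per kilobase of exon. Without a spread between mice, no neighbours in this order can be said to differ.

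**Figure D1:**
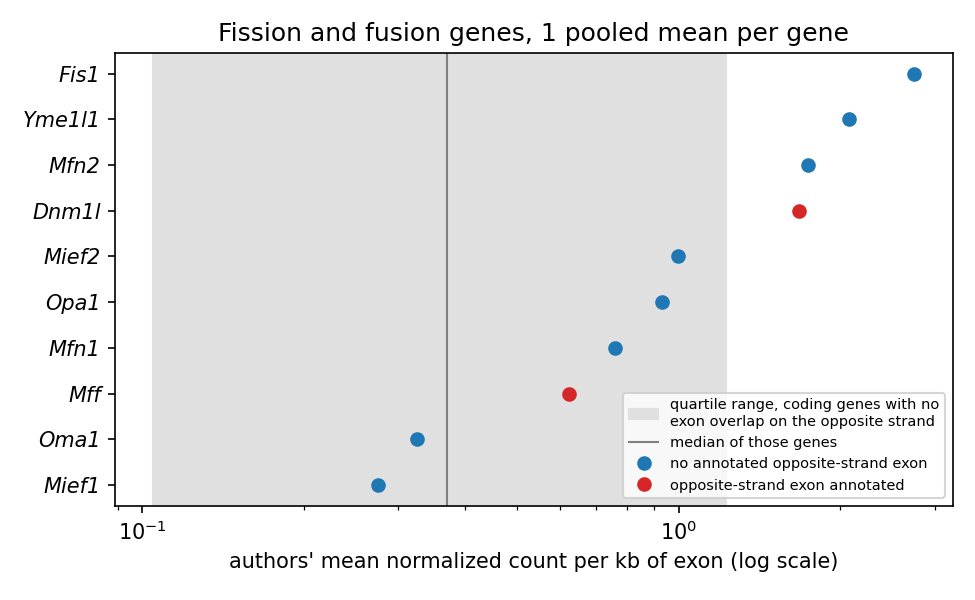
Authors' mean normalized count per kilobase of merged exon (log axis) for the 10 fission and fusion genes, 1 pooled value per gene with no error; red points mark genes with an exon annotated on the opposite strand, and the grey band and line give the quartile range and median of coding genes with no such exon. *Fis1* stands highest at 2.75 and *Mief1* lowest at 0.275, and the band runs from 0.105 to 1.22.

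As a background, 9895 coding genes in the table have no exon overlap with a gene on the opposite strand. Their median was 0.369 per kilobase of exon, with quartiles at 0.105 and 1.22. The 8 members without an opposite-strand exon can be set beside these genes. Of the 8, 6 lay above that median, and 5 lay within the quartiles. *Fis1*, *Yme1l1* and *Mfn2* lay above the upper quartile. The median over all 10 members was 0.963 per kilobase of exon, and the sum of their mean normalized counts was 62.8, which is of the same order as a single row such as *Gm49521*.

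Another list of 36 genes acts with this machinery, in constriction, cristae structure, mitochondrial transport and the removal of damaged mitochondria. Of these, 34 were in the table, with a median mean normalized count of 5.59, against 5.39 for the members. The 3 highest were *Usp30*, a deubiquitinase of the outer membrane, at 91.9, *Dnm2*, the classical dynamin of endocytosis, at 77.7, and *Mtx1*, a subunit of the outer membrane import and assembly machinery, at 52.8. Each of these has exons that overlap a gene on the opposite strand, such as *Alkbh2* and *Svop* for *Usp30*, *Tmed1* for *Dnm2*, and *Thbs3* and *Gm43737* for *Mtx1*. The 3 lowest were *Spire1*, an actin nucleator, at 0.0798, *Apoo*, a cristae junction subunit, at 0.118, and *Chchd6*, another such subunit, at 0.179. None of these 3 overlaps an opposite-strand exon. Over the list, the 7 genes with an opposite-strand exon had a median of 4.17 per kilobase of exon and the 27 without had one of 0.972. Of the 7, *Stoml2* at 0.956, *Immt* at 1.09 and *Slc25a46* at 1.61 lay near the median of those without. Over all coding genes, the 4632 with an opposite-strand exon had a median of 1.22 per kilobase of exon and the 9895 without had one of 0.369. These differences were not tested, and with only 2 members that have such an exon, whether the members follow them cannot be said. Per kilobase of exon, *Dnm1l* at 1.67 lay below *Fis1*, *Yme1l1* and *Mfn2* and above *Mief2*, *Opa1*, *Mfn1*, *Oma1* and *Mief1*. *Mff* at 0.623 lay above only *Oma1* and *Mief1*. Per kilobase of coding length, *Mff* at 6.18 and *Dnm1l* at 3.77 lay below only *Fis1* and *Yme1l1* among the members without such an exon, with *Mfn2* next at 3.75. Among the 4632, *Dnm1l* lay above 56.6% and *Mff* above 38.1%. In 7 pairs of a listed gene and an opposite-strand gene both rows were in the table, and the opposite row was the higher in 4 and the lower in 3. The ratio of the opposite row to the gene was 49.1 for *Phb2*, the inner membrane prohibitin, 12.3 for *Slc25a46*, 6.17 for *Mtx1* with *Gm43737* and 6.07 for *Immt*. It was 0.512 for *Dnm2* with *Tmed1*, 0.0353 for *Usp30* with *Alkbh2* and 0.00116 for *Mtx1* with *Thbs3*. Per kilobase of exon the *Dnm2* pair turned, with a ratio of 1.80, and the opposite row was the higher in 5 pairs and the lower in 2.

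**Figure D2:**
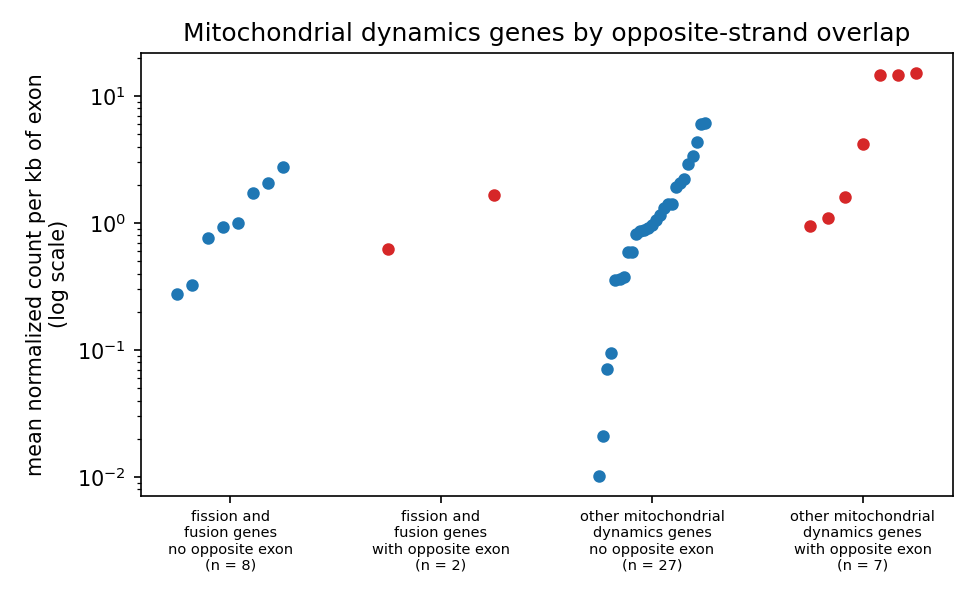
Authors' mean normalized count per kilobase of exon (log axis) for the 10 fission and fusion genes and 34 other mitochondrial dynamics genes, split by whether an exon is annotated on the opposite strand; each point is 1 gene with 1 pooled value. The 27 other genes without such an exon range from 0.0103 to 6.11, and the 8 members without one lie inside that range.

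The pairs formed by *Dnm1l* and *Mff* can be set against the table as a whole. There were 2174 pairs of a coding gene and a noncoding gene on the opposite strand with both rows in the table. Opposite genes without a row were left out. Any gene type other than protein coding was taken as noncoding, and the same gene can stand in several pairs. The noncoding row was the higher in 72.4% of the pairs, and in 85.4% per kilobase of exon. The median ratio of the noncoding to the coding row was 5.27. A ratio at least as large as that of *Dnm1l* was found in 51.7% of the pairs and one at least as large as that of *Mff* in 46.3%. Per kilobase of exon the median ratio was 22.2, against 40.0 for *Dnm1l* and 14.3 for *Mff*, and ratios at least as large were found in 39.4% and 56.3% of the pairs. On both scales the members lay well inside the range of these pairs.

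**Figure D3:**
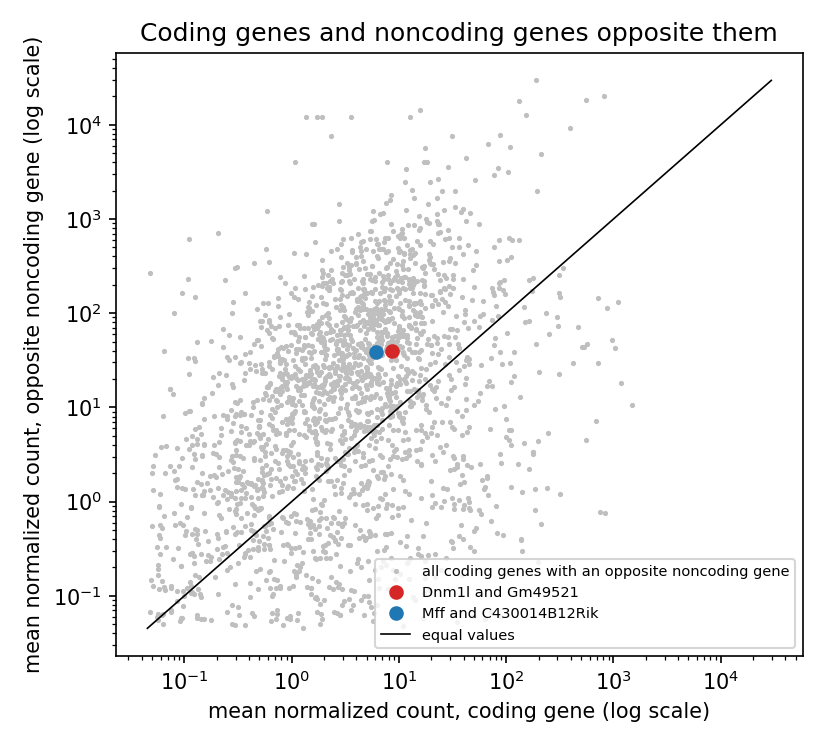
Authors' mean normalized count of a coding gene (x axis, log scale) and of the noncoding gene whose exons overlap it on the opposite strand (y axis, log scale), for 2174 pairs; the line marks equal values. *Dnm1l* with *Gm49521* and *Mff* with *C430014B12Rik* both lie above the line, inside the main cloud.

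Other rows bear on how these values may be read. The libraries were made with a strand-specific kit, and which strand setting was used when counting is not given in the sources used here. On the mitochondrial chromosome, *mt-Nd6*, the 1 coding gene of the minus strand, had a mean normalized count of 30507. The 12 coding genes of the plus strand ranged from 0.13 (*mt-Nd4l*) to 6624 (*mt-Nd5*), and 6 of them were under 10, with *mt-Co2* at 2.37, *mt-Atp6* at 0.839 and *mt-Co3* at 0.775, all of which encode core subunits of the respiratory chain or ATP synthase. The 5 hepatocyte markers ranged from 100.4 (*Serpina1a*) to 4958 (*Alb*), and 14 markers of other liver cells from 0.0850 (*Krt19*) to 121.0 (*Csf1r*). The next highest of the 14 was *Dcn* at 8.20. An exon is annotated on the opposite strand of 3 of the 14, *Csf1r*, *Stab2* at 4.36 and *Des* at 0.261. Which strand the counted reads of *Dnm1l*, *Mfn1*, *Mfn2* and the other members came from was not tested, and the value of a row is therefore not given here as the abundance of that gene's mRNA.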

How the data were processed

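Liver RNA of WT mice and 3 knockout genotypes, 2 or 6 months old, was profiled by poly(A) RNA-seq in 32 libraries. Per the methods, the authors mapped single-end reads with HISAT2 2.1.0.13 to GRCm38, counted them on genes with HTSeq and fitted DESeq2. The deposited signal is the authors' mean normalized count (counts divided by size factors, averaged over libraries), identical under the 6 comparison headings of their table. The other 30 columns hold the authors' own comparisons with WT (log2 fold changes, standard errors, Wald statistics, p-values) and were not used. No value per library was analysed, so the planned count test between groups was not run, there is no test in the text, and the depth of single libraries and the precision are unknown.

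The GENCODE M21 annotation of GRCm38 gave gene positions, merged exon lengths and exon overlaps. It held 21833 of the gene identifiers and lacked 47. Mean counts were divided by exon length in kilobases of 1000 bases. Overlap and percentile functions were tested on simulated data. The members and lists were chosen with earlier results of these data known. The rule for genes named in the text covered the 10 members and the 3 highest and 3 lowest of the other list. Picked with their values already seen were the overlapping genes, the listed genes paired with them and the mitochondrial genes. Alternatives were other length scalings and minimum means of 1 and 10. Python 3.11.15, numpy 2.4.6 and pandas 2.3.3 were used.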

Additional observations from a re-analysis of the deposited data

How the results depend on the processing

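The share of genes with a lower value than a member was taken over all genes of the table, and its median over the 10 members was 71.1%. It was 62.6% per kilobase of coding length among coding genes and 62.5% per kilobase of exon, an alternative chosen after seeing the data. It was 52.6% when the 12419 genes at or above a mean of 1 were ranked, leaving 9 members, and 26.6% for the 4423 genes at or above a mean of 10, leaving *Yme1l1* alone. Fewer genes of low value stand below a member there by construction. Coding length in place of exon length moved *Mff* from place 8 to place 3 among the members, *Mief2* from place 5 to place 8, *Mfn2* from place 3 to place 5, just below *Dnm1l*, and *Mief1* from place 10 to place 9, with *Oma1* then in place 10, while *Fis1* and *Yme1l1* stayed first and second. No paired analysis was possible because the values analysed are 1 mean per gene over all libraries. For the same reason another count test, another normalization, a pseudocount and leaving out replicates were not run.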
